A study of Mus musculus with 22 samples.

Results

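UNC0379, a small-molecule inhibitor of the histone methyltransferase SETD8 (gene symbol Kmt5a), was compared with the group labelled NC in poly(A)-enriched RNA from the mouse ESC line E14, across all measured genes. The comparison rests on 4 of the 22 libraries of the series, chosen by their titles: UNC0379 replicates 1 and 2, and NC replicates 1 and 2. All 22 libraries came from the same cell line, and 10 compounds and NC had 2 libraries each. UNC0379 libraries were labelled only with the name of the compound, and the label of NC names no compound, unlike those of all other groups. No dose, exposure time or solvent is stated in the labels, and the study's text describes knockdowns and not these compounds. Nothing says that the 2 libraries of a group came from separate cultures, so p-values measure the spread between libraries, which may be technical.

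SETD8 places a single methyl group on lysine 20 of histone H4, the substrate from which KMT5B and KMT5C make the higher methylated forms found in heterochromatin. The enzyme rises and falls through the cell cycle: on replicating DNA it is bound through PCNA and degraded by the CRL4 ubiquitin ligase with its adaptor Cdt2 (gene Dtl), and the mark that it leaves takes part in mitotic chromosome condensation and in licensing of replication origins. An inhibitor acts on the protein, so the mRNA of Kmt5a does not measure whether the enzyme was blocked.

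Values are normalised read counts per gene, which the authors had scaled so that every library has the same distribution: the median over all 18487 genes was 409 and the largest value was 221616 in each library. Read depth per library is therefore unknown, and so is any change in total RNA. In bulk RNA a lower value cannot be told apart from fewer cells that express the gene. Between 1065 and 1707 genes were listed at 0 in a library. Changes are differences of log2(value + 1), UNC0379 minus NC, with the SE of limma's fit to all 22 libraries. The fit carried the replicate number as a block and tested 17275 genes. Calls needed both an adjusted p (Benjamini-Hochberg, over all tested genes) under 0.05 and more than a 2-fold difference. The labels do not say what the replicate number stands for.

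Few genes separated UNC0379 from NC. 11 of the 17275 tested genes were called (0.0637%), 6 higher and 5 lower, and the median change over all tested genes was -0.00485. At an unadjusted p under 0.05, 1259 genes were higher (7.29%) and 1395 lower (8.08%). Without the replicate block, limma called 0 genes and left 1051 at an unadjusted p under 0.05, with a smallest adjusted p of 0.0546. A fit of the 4 libraries alone, which has 1 residual degree of freedom, also called 0. The calls rested on single libraries as well. With UNC0379 replicate 1 or NC replicate 1 left out, Lemd1 alone of the 11 kept its call. With UNC0379 replicate 2 left out, only Lemd1 and Emb did, whereas without NC replicate 2 all 11 kept it. The number of genes called moved too.

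Lemd1, which encodes a protein with a LEM domain as found in inner nuclear membrane proteins, kept its call in more alternative settings than any other called gene. Its values were 27 and 15 in NC and 124 and 93 with UNC0379. Neither UNC0379 library overlapped NC, and both were above all 18 libraries of the other 9 compounds, whose values ran from 13 to 67 with a median of 29. The change was 2.36 ± 0.24 (SE, adjusted p = 0.00511), and the call held in 10 of the 12 alternative settings. Lemd1 lies at chr1:132191431-132259227 (mm10, + strand), and its exons overlap those of another gene on its own strand and of 2 genes on the opposite strand, so part of its reads may belong to them.

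Emb encodes embigin, a membrane glycoprotein that escorts lactate transporters to the cell surface. It was at 451 and 441 in NC, compared with 150 and 194 with UNC0379. Both UNC0379 libraries lay below every other library of the series, of which the other 9 compounds held 241 to 482. Emb fell by 1.38 ± 0.17 (SE, adjusted p = 0.0167), and 8 of the 12 alternatives kept the call. The gene lies at chr13:117208536-117274415 (+ strand), and 22.7% of the 31-base stretches of its longest transcript occur in transcripts of other genes.

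The sequence before the start sites of these genes is shown because they kept their calls in the most settings, and that of Sp5, a WNT target described further on that was not called, for comparison with the TCF/LEF motif. Each line gives the 250 bases upstream of a RefSeq start site in GRCm38.p6 (mm10), 5′ to 3′ on the strand of the gene. Lemd1 is at chr1:132191186-132191435 (+ strand), Emb at chr13:117220323-117220572 (+ strand) and Sp5 at chr2:70474673-70474922 (+ strand). The Emb window lies inside the GENCODE span given above for that gene, so it is not the sequence before the first base of that span. Capitals mark CTTTGAT, a core of the sites bound by the TCF/LEF factors of the WNT pathway, or its reverse complement.
Lemd1: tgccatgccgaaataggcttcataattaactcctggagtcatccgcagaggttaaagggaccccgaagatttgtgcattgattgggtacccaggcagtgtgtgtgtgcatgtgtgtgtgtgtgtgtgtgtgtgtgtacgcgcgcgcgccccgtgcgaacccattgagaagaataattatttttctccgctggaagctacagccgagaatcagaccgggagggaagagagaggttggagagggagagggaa
Emb: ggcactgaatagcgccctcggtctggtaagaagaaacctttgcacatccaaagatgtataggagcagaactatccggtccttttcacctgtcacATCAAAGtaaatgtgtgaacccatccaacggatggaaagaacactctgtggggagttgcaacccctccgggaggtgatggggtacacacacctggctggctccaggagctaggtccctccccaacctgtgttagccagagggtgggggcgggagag
Sp5: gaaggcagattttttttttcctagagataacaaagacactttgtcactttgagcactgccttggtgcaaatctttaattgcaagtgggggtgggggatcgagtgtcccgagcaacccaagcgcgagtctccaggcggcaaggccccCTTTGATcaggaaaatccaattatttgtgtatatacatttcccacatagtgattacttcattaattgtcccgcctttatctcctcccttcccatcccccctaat
On either strand CTTTGAT occurred in 1053 of the 32851 promoter windows of this length (3.21%), and 1005 of 27025 genes (3.72%) had it in at least 1 window. It was present once in Sp5, where its first base is 104 bases before the start site, and once in Emb on the reverse strand. Neither of the 2 windows of Lemd1 held it. Among the called genes with a window it was found in 2 of 8, Emb and Trpv4, both of which fell. A match describes these letters only.

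Catip, a gene named for its part in ciliogenesis, was at 36 and 57 in NC against 225 and 155 with UNC0379. It rose by 2.02 ± 0.31 (adjusted p = 0.0423), and the UNC0379 library was the highest of the 11 with its replicate number in both cases. Mfsd7c, the older symbol of the membrane transporter gene Flvcr2, was at 174 and 196 in NC, compared with 407 and 483 with UNC0379, a rise of 1.26. For this gene NC, not UNC0379, stood at an end of the series, since it was the lowest of the 11 libraries of each number.

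Nefm, the medium neurofilament subunit, was at 207 and 322 in NC against 501 and 754 with UNC0379 (1.25, adjusted p = 0.0441). Some 30.1% of its 31-base stretches recur in other transcripts, and its exons overlap those of Nefl. Sh3pxd2a, the scaffold TKS5 of podosomes, was at 549 and 321 in NC, compared with 1206 and 615 with UNC0379 (1.03). Its lower UNC0379 library exceeded the higher NC library by less than the NC libraries differed. Gm5930 had values of 28 and 52 with UNC0379 and was listed at 0 in NC replicates 1 and 2. The other 9 compounds held 0 to 55, with a median of 21.5, and Valproate had 55 and 49. For this gene too NC was low in the series. No fold is given against 0, and 76.2% of its stretches are shared with other genes. Catip kept its call in 6 of the 12 alternatives, Mfsd7c, Nefm and Sh3pxd2a in 5, and Gm5930 in 3 of 11. The change of Mfsd7c ran from 0.59 to 1.37 over them, that of Nefm from 0.67 to 1.51, that of Sh3pxd2a from 0.60 to 1.13 and that of Catip from 1.17 to 2.54.

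Among the genes that fell, Abca3, a lipid transporter known from lung surfactant, had 628 and 562 in NC and 75 and 207 with UNC0379. It fell by 2.24, and UNC0379 was the lowest group in both numbers. Trpv4, a calcium-permeable channel, had 303 and 277 in NC and 77 and 112 with UNC0379, and fell by 1.63 ± 0.26. NC replicate 1 was the highest of the 11 libraries numbered 1 for Trpv4, and the other 9 compounds reached from 40 to 382.

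Atxn1l, a partner of the repressor CIC, had 162 and 97 in NC and 45 and 36 with UNC0379 and fell by 1.62 ± 0.22. The other compounds spanned 3 to 403 for this gene. Slc27a2, an activating enzyme and carrier of very long-chain fatty acids, had 491 and 523 in NC and 178 and 285 with UNC0379 and fell by 1.17 ± 0.19. Atxn1l kept its call in 7 of the 12 alternatives, Abca3 in 6, and Trpv4 and Slc27a2 in 5. Over these settings the change of Slc27a2 ran from -1.36 to -0.56 and that of Trpv4 from -2.05 to -0.93.

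**Figure D1:**
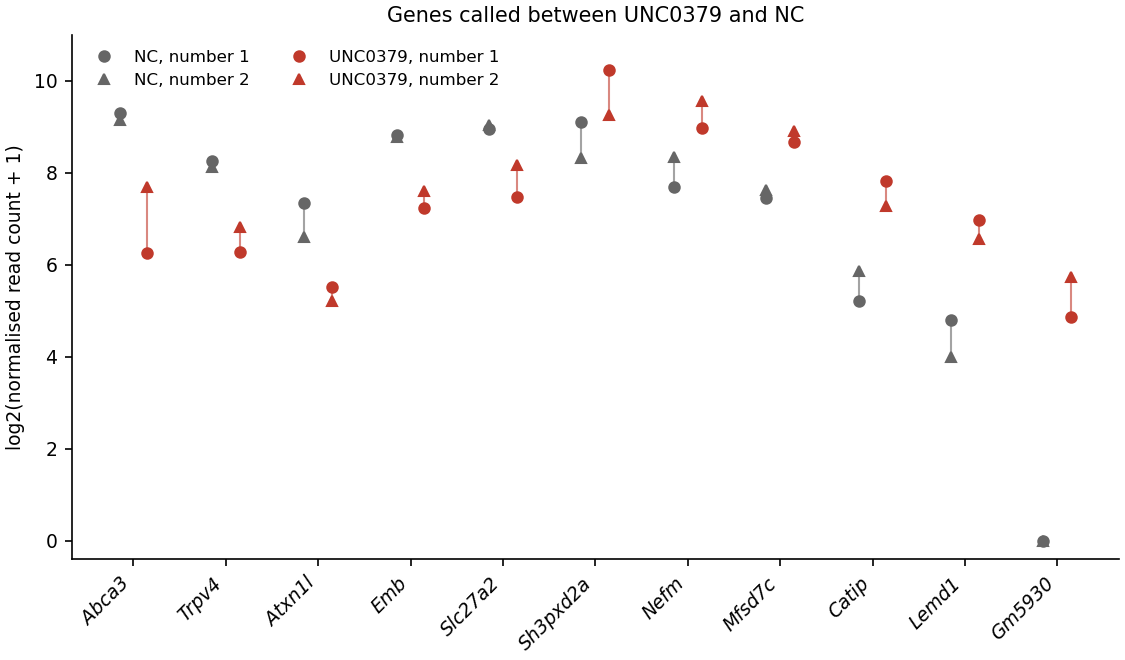
Normalised read counts of the 11 called genes, on a log2(value + 1) axis, with 1 point per library: circles are replicate 1 and triangles replicate 2, grey is NC and red UNC0379, and lines join the 2 libraries of a group. Genes are ordered from the largest fall (Abca3, left) to Gm5930, which is at 0 in both NC libraries, and Lemd1 and Emb show a gap between groups that is wide against the spread within them.

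A further 3 genes passed the adjusted p but not the fold limit and were singled out after their values were seen. Abca1, which exports cholesterol from the cell, was at 808 and 619 in NC against 1638 and 1157 with UNC0379 (0.96 ± 0.14, adjusted p = 0.0423). The zinc finger gene Zfp414 was at 1613 and 1336 in NC, compared with 899 and 981 with UNC0379 (-0.64). Cyth3, an exchange factor for ARF GTPases, was at 368 and 440 in NC against 163 and 262 with UNC0379 (-0.96).

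Within replicate numbers, UNC0379 minus NC had the same sign in both numbers for 66.9% of the genes. Across the 16426 tested genes above 0 in all 4 libraries, the 2 changes correlated with r = 0.205 (0.116 over all tested genes). This is a description across genes, which are not replicates and share the scaling of their library. For Lemd1 the change was 2.16 in number 1 and 2.55 in number 2, whereas for Abca3 it was -3.05 and -1.44.

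**Figure D2:**
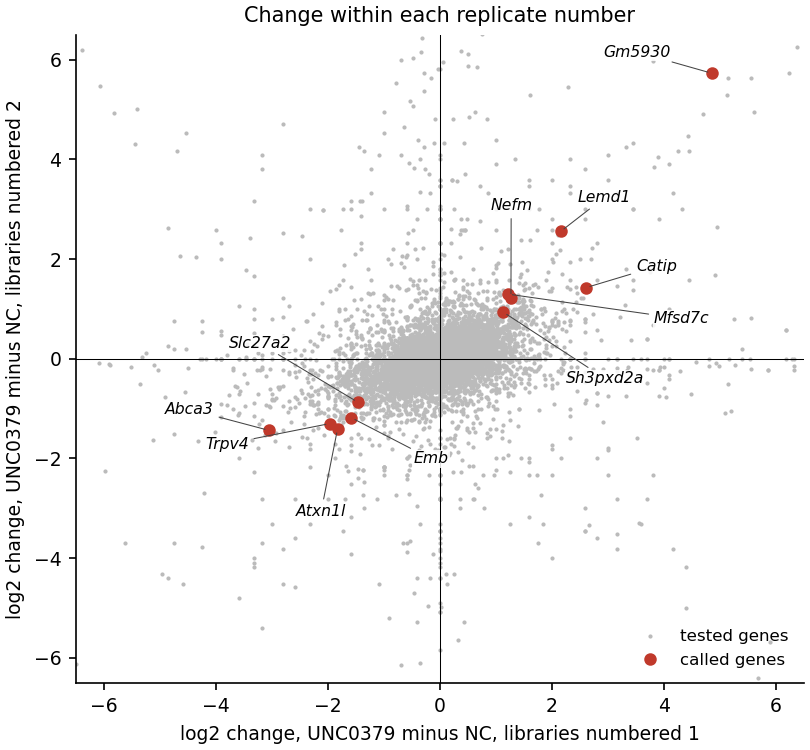
Log2 change of each tested gene, UNC0379 minus NC, in the libraries numbered 1 (horizontal axis) against those numbered 2 (vertical axis), with the 11 called genes in red. Axes end at 6.5 on the log2 scale, which leaves out 265 genes, and the called genes sit in the quadrants where both changes share a sign.

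Genes with larger changes that did not pass the test also varied widely across the series. Rises were ranked among genes that were not called, above 0 in all 4 libraries, without overlap and with an unadjusted p under 0.05. The larger group mean had to be at least 100. The 10 largest were all at 30 or below in both NC libraries and between 425 and 755 with UNC0379. Sntg1, a syntrophin, was at 2 and 2 in NC and 748 and 506 with UNC0379, yet the other 9 compounds ranged from 2 to 994 (adjusted p = 0.131). Gm10352, Gm43466, Gm37941, Gm27241, RP24-559D16.1, Gm16147, 3110062G12Rik, Gm38284 and Gm43266 were likewise low in NC, with adjusted p between 0.0869 and 0.259. Most of them are gene models without a given name, and each was between 543 and 882 at its highest with another compound.

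The 10 largest falls of this kind held more known genes. Tesc, a calcium-binding regulator of a sodium-proton exchanger, was at 76 and 126 in NC, compared with 10 and 46 with UNC0379 (-2.12, adjusted p = 0.0506). Lmx1b, a homeobox factor, was at 572 and 182 in NC against 65 and 62 with UNC0379. Plcd1, Timp2, Rarb, Aatk, Col9a2, Myo1f, Adgra2 and Olfr466 completed the set, at log2 changes from -2.21 to -4.01, none with an adjusted p under 0.05.

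No gene of the H4K20 machinery was called. Kmt5a itself, the gene of the inhibited enzyme, was at 2143 and 2015 in NC, compared with 2647 and 2367 with UNC0379. Both UNC0379 libraries were above NC, but the change of 0.27 ± 0.13 did not pass the test (adjusted p = 0.344), and other compounds reached 2771. Kmt5b (0.09 ± 0.15) and Kmt5c (-0.08 ± 0.08), which add further methyl groups, differed by no more than about 1 SE.

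Of the demethylases of this residue, Phf8 was at 3248 and 3928 in NC against 2044 and 3248 with UNC0379 (-0.47 ± 0.19, adjusted p = 0.264), and Rsbn1 differed by -0.08. Among 13 readers of the methylated residue, 2 were higher at an unadjusted p under 0.05 (15.4%, against 7.29% of all tested genes) and 0 lower. These were Mbtd1, a protein with MBT repeats, at 2001 and 1719 in NC, compared with 3102 and 2217 with UNC0379, and the condensin subunit Smc2, at 5764 and 4486 against 10793 and 5117. Neither passed adjustment (0.153 and 0.251).

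In the list of 13 genes for turnover of SETD8, 1 was lower (7.69%) and 0 higher at an unadjusted p under 0.05. Over all tested genes 8.08% were lower and 7.29% higher. The lower gene was Btrc, a substrate receptor of an SCF ligase, with 2604 and 2886 in NC and 1462 and 2243 with UNC0379. Cul4b, the scaffold of a CRL4 ligase, had the next smallest p, with 6221 and 4253 in NC and 8309 and 5522 with UNC0379 (0.40, adjusted p = 0.334). Dtl (0.0032 ± 0.11), the licensing factor Cdt1 (0.03 ± 0.09) and the sliding clamp Pcna (0.17 ± 0.13) were not called, and their NC and UNC0379 libraries overlapped.

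No listed gene of the processes in which H4K20 methylation takes part was called. In the list for replication origins and forks, 2 of 41 genes were higher and 2 lower at an unadjusted p under 0.05. That is 4.88% in each direction, against 7.29% and 8.08% of all tested genes. Mcm10, needed to activate the replicative helicase, was at 6659 and 7413 in NC against 5532 and 5628 with UNC0379 (adjusted p = 0.152), and the clamp loader subunit Rfc4 was at 2892 and 3892 against 1614 and 2725.

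For mitosis and chromosome condensation the count at that level was 1 of 32 in each direction (3.12%). Smc2 was higher and Ncapd2, a subunit of condensin I, was lower by 0.16 ± 0.07. DNA damage signalling and repair had 2 of 25 higher (8%), the fork protein Timeless (0.21) and the kinase Prkdc (0.34), and 0 lower. Other histone lysine methyltransferases had 0 of 25 higher and 3 lower (12%), namely Setdb2, Smyd2 and Ehmt1, at -0.28, -0.27 and -0.24. Over all tested genes 7.29% were higher and 8.08% lower.

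The p53 pathway, which answers DNA damage, had 2 of 24 targets higher (8.33%) and 1 lower (4.17%) at an unadjusted p under 0.05. Over all tested genes these shares were 7.29% and 8.08%. The median change of the targets was 0.18. Plk2, a kinase, was at 997 and 897 in NC, compared with 1897 and 1297 with UNC0379, and Trp53inp1 was at 6297 and 4394 against 12129 and 6428 (adjusted p = 0.187 and 0.227). The best known members were not called. Cdkn1a, the cell cycle inhibitor p21, was at 6054 and 5364 in NC against 5869 and 5293 with UNC0379 (-0.03 ± 0.07), and the changes of Mdm2, Ccng1 and Trp53 were 0.22 ± 0.17, 0.37 ± 0.18 and -0.11 ± 0.14.

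Most histone H4 mRNAs lack a poly(A) tail, and the libraries were enriched with oligo-dT. Their values were low, and 1 of the 8 tested was higher at an unadjusted p under 0.05 (12.5%, against 7.29% of all tested genes). That was Hist1h4d, at 11 and 20 in NC, compared with 29 and 36 with UNC0379. Next came Hist1h4b (0.82, adjusted p = 0.446). Over the 12 listed genes with values, which include some not tested, the sum was 84 and 147 in NC and 141 and 202 with UNC0379.

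In the list for heterochromatin and DNA methylation, 2 of 20 genes were lower (10%, against 8.08% of all tested genes) and 0 higher at an unadjusted p under 0.05. Dnmt3a, a de novo DNA methyltransferase, was at 572 and 613 in NC against 196 and 424 with UNC0379 (-1.04, adjusted p = 0.131), and Uhrf2 was at 2104 and 1575 against 1005 and 1214 (-0.72).

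Of the 24 lists, cholesterol synthesis had the largest share of members lower at an unadjusted p under 0.05. Of its 24 genes, 16 were lower (66.7%, against 8.08% of all genes) and 0 higher, 23 had a negative change, and the median change was -0.27. None was called. Dhcr7, the last step of the pathway, was at 3157 and 3291 in NC, compared with 2077 and 2090 with UNC0379 (-0.63 ± 0.12, adjusted p = 0.067).

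Fdft1, squalene synthase, was at 6387 and 6809 in NC against 4794 and 5562 with UNC0379 (-0.35 ± 0.09, adjusted p = 0.114). Srebf2, the factor that drives the pathway, was at 19820 and 17254 against 14112 and 15007 (-0.35). Dhcr7, Fdft1 and Srebf2 each had UNC0379 below NC without overlap. Hmgcs1, an early enzyme of the pathway, was at 9529 and 11505 in NC but at 10491 and 9272 with UNC0379, and did not reach an unadjusted p under 0.05.

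This count moved with the fit. It was 6 without the replicate block, 5 without UNC0379 replicate 1 and 10 without NC replicate 2, and 11 and 12 when the remaining libraries were left out in turn. Against the mean of the other 9 compounds 9 of the 24 genes were lower and 1 higher at an unadjusted p under 0.05, with a median of -0.10, where over all genes 6.51% were lower and 7.44% higher. Dhcr7 was not lowest with UNC0379, as other compounds reached 1249. TCACNCCAC, the core of the sites bound by SREBP, was found in the upstream window of 1 of the 16 genes with a window, Hmgcs1, and in 1.22% of all genes.

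Genes of the opposite branch of sterol control, the targets of the oxysterol receptor LXR, were listed after the values of Abca1 had been seen. Of 12 tested, 3 were higher at an unadjusted p under 0.05 and 0 lower, where 7.29% of all tested genes were higher. Abca1, which prompted the list, is 1 of the 3. The others were the sterol exporter Abcg1, at 520 and 407 in NC against 930 and 612 with UNC0379 (0.71, adjusted p = 0.067), and the lipase Lpl, at 317 and 249 against 492 and 384 (0.63). The other members had changes between -0.14 and 0.41. Abcg1 reached 1728 with Valproate, so UNC0379 was not the highest. For Abca1 UNC0379 was the highest library numbered 1, but MS023 was above it in number 2 (1243 against 1157). NC was the lowest library numbered 1 for Abcg1 and the lowest numbered 2 for Abca1.

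Of 16 WNT targets tested, 4 were higher (25%, against 7.29% of all tested genes) and 1 lower at an unadjusted p under 0.05. None was called, and the median change was 0.49. Sp5, a transcription factor induced by WNT signalling, was at 376 and 390 in NC, compared with 1146 and 889 with UNC0379 (1.40 ± 0.25, adjusted p = 0.0572). Axin2, the feedback inhibitor of the pathway, was at 766 and 814 against 1884 and 1387 (1.03 ± 0.24, adjusted p = 0.0945). Neither gene had overlapping groups.

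The other members that were higher, T (28 and 22 in NC, 125 and 36 with UNC0379) and Cdx2 (2 and 8 in NC, 17 and 24 with UNC0379), which mark primitive streak and trophectoderm, were near the low end of the values. Tnfrsf19 was lower, at 1380 and 967 in NC and 843 and 824 with UNC0379, and carried CTTTGAT in 1 of its windows. Of the 10 WNT targets with a window 2 held it. Against the other 9 compounds, 5 of the 16 targets were higher and 0 lower at an unadjusted p under 0.05. Over all genes 7.44% were higher and 6.51% lower there. Sp5 reached 2216 with Valproate and was at 1314 and 1137 with Chaetocin, so the level with UNC0379 was not the highest. Axin2 was at 1999 and 1588 with Valproate, also above UNC0379. For both genes NC was the lowest library numbered 1, but not the lowest numbered 2.

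Of 13 markers of primitive endoderm, a lineage that arises in ESC cultures, 6 were lower at an unadjusted p under 0.05 (46.2%, against 8.08% of all tested genes) and 0 higher. None was called, 2 had a positive change, and the median was -0.45. The collagen IV chains had the smallest p of the list. Col4a2 was at 313 and 243 in NC against 84 and 111 with UNC0379 (-1.50 ± 0.31, adjusted p = 0.0794), and Col4a1, whose exons overlap those of Col4a2 on the opposite strand, was at 257 and 265 against 88 and 160 (-1.13). The defining transcription factors were less clear, with Gata4 at 156 and 154 in NC and 117 and 136 with UNC0379, Gata6 at 192 and 115 against 77 and 111, and Sox17 at 43 and 30 against 13 and 30.

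The summed value of the 13 markers was 73277 and 63300 in NC and 56984 and 56937 with UNC0379, most of it Lamc1, Lama1 and Sparc, which ESCs express as well. Whether fewer endoderm-like cells account for the lower values was not tested. Against the other 9 compounds, 6 of the 13 were lower at an unadjusted p under 0.05, where 6.51% of all genes were. Of these Dab2 was called. NC replicate 1 had the highest Col4a2 value of all 22 libraries, and the other compounds held 102 to 265.

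**Figure D3:**
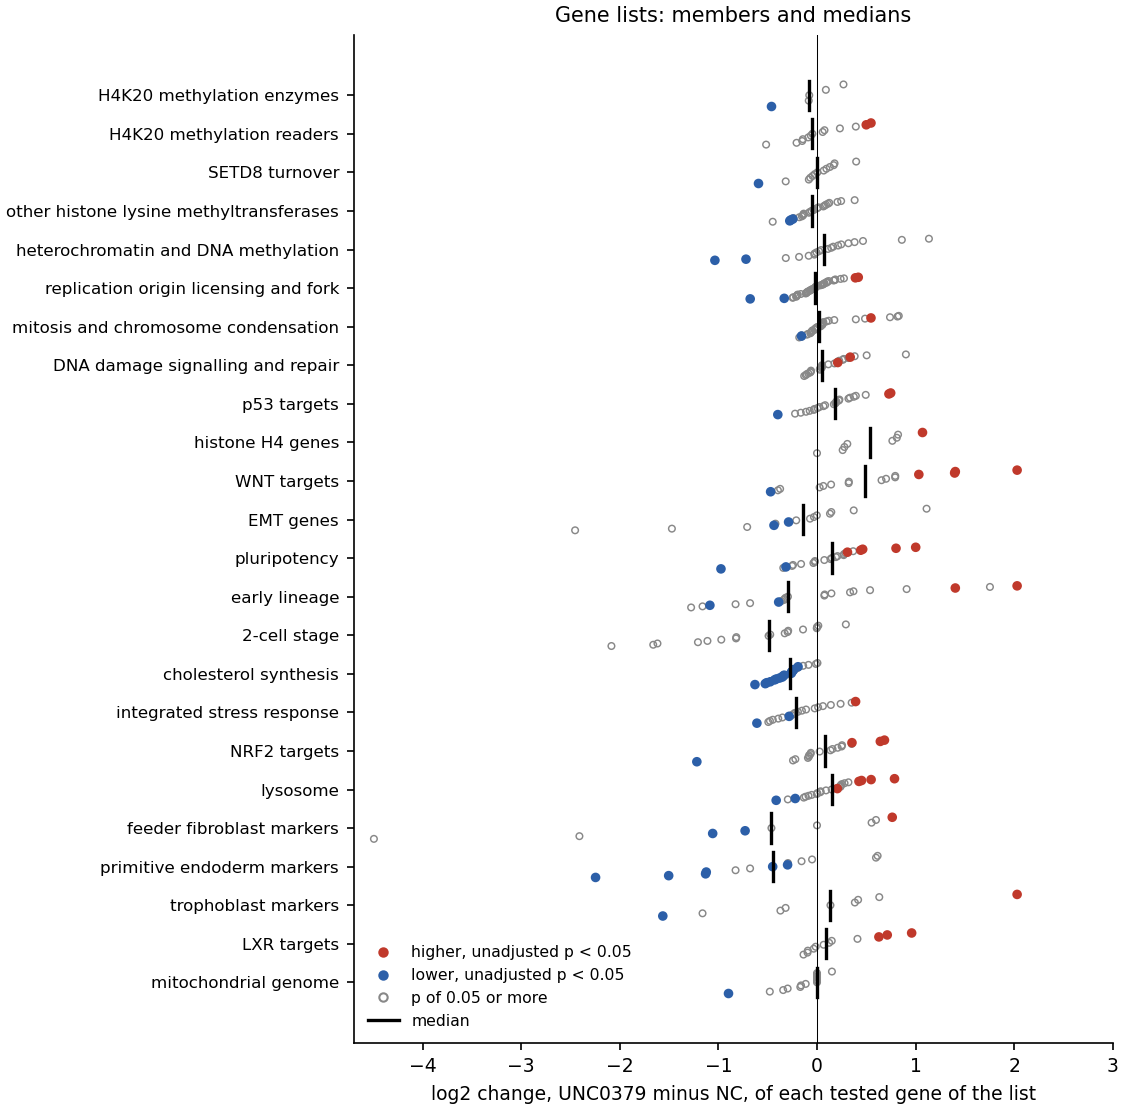
Log2 change of every tested gene, UNC0379 minus NC, for the 24 gene lists. Points are genes, filled red or blue where the unadjusted p was under 0.05 and open elsewhere, and the black bar is the median of the list: cholesterol synthesis has 16 of 24 genes filled blue, and the WNT targets have a median of 0.49.

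Pluripotency genes stayed expressed. Pou5f1 was at 28606 and 29454 in NC and at 28606 in both UNC0379 libraries, Nanog was at 44793 and 59405 against 31970 and 59405, and identical values arise from the shared distribution. Of 23 genes, 5 were higher (Sox2, Klf4, Lin28a, Dppa3, Dppa5a) and 2 lower (Dppa2, Dppa4) at an unadjusted p under 0.05. These are 21.7% and 8.7% of the list, against 7.29% and 8.08% of all tested genes. Sox2 was at 14112 and 10935 in NC, compared with 16436 and 14408 with UNC0379 (0.31 ± 0.11, adjusted p = 0.219), and Dppa2 was at 1827 and 2604 against 588 and 2094 (-0.97). Myc was listed at 4 and 19 in NC against 13 and 42 with UNC0379, too low to order.

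Genes of the 2-cell stage, which a small share of ESCs express, had 0 of 18 past an unadjusted p under 0.05, and 16 of the 18 changes were negative with a median of -0.48. Of all 17275 tested genes, 8877 had a negative change. These values were low and reads of near-identical copies such as the Zscan4 genes cannot be split with certainty. Tmem92 (6 and 9 in NC, 2 and 4 with UNC0379) and Gm4340 (88 and 46 against 19 and 66) had the smallest p of this list. Early lineage markers had 2 of 21 higher (Cdx2 and T) and 2 lower (Pax6 and Sox1) at that level. That is 9.52% in each direction, against 7.29% and 8.08% of all tested genes.

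Stress programmes had members in both directions at an unadjusted p under 0.05. The NRF2 targets had 3 of 18 higher (16.7%), Gstm1, Nqo1 and Gclc, and 1 lower (5.56%), against 7.29% and 8.08% of all tested genes. Nqo1, a quinone reductase, was at 728 and 872 in NC, compared with 1100 and 1407 with UNC0379 (0.64, adjusted p = 0.221). The integrated stress response had 1 of 20 higher (5%), Aldh1l2 (0.39), and 2 lower (10%), Atf3 (-0.61) and Phgdh (-0.28). Lysosomal genes had 5 of 25 higher (20%) and 2 lower (8%), against 7.29% and 8.08% of all tested genes. In only 1 of the 25 were both UNC0379 libraries above both NC libraries (4%, against 17.2% of all tested genes). In 1 both were below (4%, against 17.6%). The protease Tpp1, whose groups overlapped, was at 2488 and 1802 in NC and 3954 and 2427 with UNC0379. The cholesterol transporter Npc1 was at 2357 and 1934 against 1614 and 1590.

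Genes for epithelial-mesenchymal transition had 0 of 14 higher and 2 lower (14.3%) at that level, Itgb1 (-0.29) and Epcam (-0.44). Over all tested genes 7.29% were higher and 8.08% lower. Markers of trophoblast had 1 of 9 higher (11.1%), Cdx2, and 1 lower (11.1%), Esx1, at 261 and 199 in NC and 53 and 110 with UNC0379. Of 9 tested fibroblast markers 1 was higher (11.1%) and 2 lower (22.2%) at that level. Their changes ran from -4.49 to 0.76, with a median of -0.46. Over the 11 listed markers with values, the sum was 884 and 1653 in NC and 1110 and 333 with UNC0379. Lum was at 0 in all 4 libraries, and Col1a1 was at 39 and 44 with UNC0379 and at 24 in NC replicates 1 and 2. Fbn1 had a negative change (-0.73): UNC0379 replicates 1 and 2 held 52 and 127, whereas those of NC held 117 and 157.

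The list for transcripts of the mitochondrial genome was added after values were seen. In it 1 of 15 was lower (6.67%) and 0 higher at an unadjusted p under 0.05. Over all tested genes 8.08% were lower and 7.29% higher. The lower one was the ribosomal RNA mt-Rnr1, at 14995 and 24739 in NC against 7229 and 14700 with UNC0379 (-0.90 ± 0.16, adjusted p = 0.0506). mt-Co1 had the ceiling value of 221616 in all 4 libraries, so changes at the top of the scale cannot be seen.

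The libraries of the other compounds gave a further reference, which shares the UNC0379 libraries with the comparison above. With the mean of the other 9 compounds as reference, 64 genes were called (0.370%), 36 higher and 28 lower. Of the 11 genes called against NC, 5 were called here too: Lemd1 (1.80 ± 0.18), Emb (-1.06 ± 0.13), Atxn1l (-1.14), Abca3 (-1.51) and Catip (1.07). UNC0379 was at an end of all 11 groups in both numbers for 4 of the 11, namely Lemd1, Catip, Emb and Abca3.

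Other genes were called in that comparison and not against NC, of which 5 were singled out after their values were seen. Mmp14, a membrane-bound matrix protease, was at 572 and 365 with UNC0379 and at 31 to 534 with the others (1.58, adjusted p = 0.00195), and NC had 352 and 347. Smad9, a mediator of BMP signals, was at 788 and 503 against 122 to 649 (1.18), with 404 and 298 in NC. Kbtbd11, Copz2 and Rapsn were called as well, and for each of the 5 the change against NC was smaller than that against the compounds. Without UNC0379 replicate 1 the count was 10, without UNC0379 replicate 2 it was 16, and without the block it was 7.

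**Figure D4:**
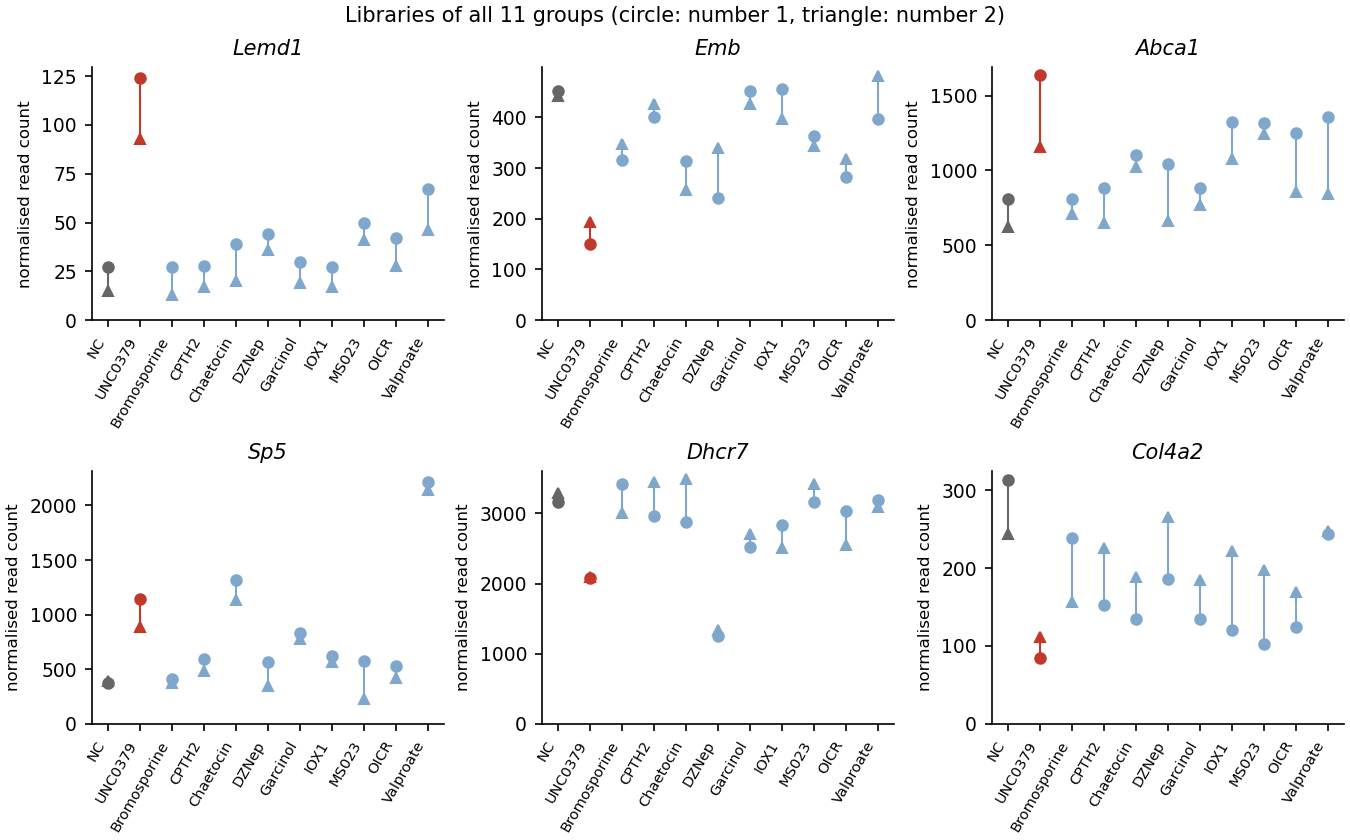
Normalised read counts of 6 genes in all 22 libraries, by group, on linear axes from 0: circles are replicate 1 and triangles replicate 2, with NC in grey, UNC0379 in red and the other 9 compounds in blue. Lemd1 is highest and Emb lowest with UNC0379, whereas Sp5 reaches 2216 with Valproate and Dhcr7 reaches 1249 with DZNep.

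Chaetocin also inhibits histone lysine methyltransferases, and MS023 inhibits type I arginine methyltransferases. Their doses and times are not given either, so these are comparisons of libraries. UNC0379 differed from Chaetocin by 15 called genes (0.0868%), 9 higher and 6 lower, and from MS023 by 570 (3.30%), 313 higher and 257 lower. Lemd1 was called in both, with 1.90 ± 0.24 against Chaetocin and 1.23 ± 0.24 against MS023. Emb was called against MS023 (-1.05, adjusted p = 0.00224) but not against Chaetocin (-0.73, adjusted p = 0.126). The Chaetocin count was 40 without Chaetocin replicate 1, 7 without UNC0379 replicate 2 and 4 without the block, and the MS023 count was 237 without the block and 265 without UNC0379 replicate 1.

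The direction of change against NC varied with gene length. Over the 16768 genes with 1 position in GENCODE M21, genes in the shortest quartile, up to 7.28 kb, were higher in 7.8% and lower in 4.01% at an unadjusted p under 0.05. In the longest quartile, from 51.6 kb, 5.82% were higher and 12.4% lower, with a median change of -0.08 against 0.03 in the shortest. The median in the longest quartile was -0.12 in the libraries numbered 1 and -0.02 in those numbered 2. Against the other 9 compounds the longest quartile did not lean the same way, with 8.44% higher and 6.63% lower. Expression level differed between the quartiles too. The median of the mean of the NC and UNC0379 values was 196.9 in the shortest, then 557.4, 822.6 and 633.2. Length was not separated from level here.

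**Figure D5:**
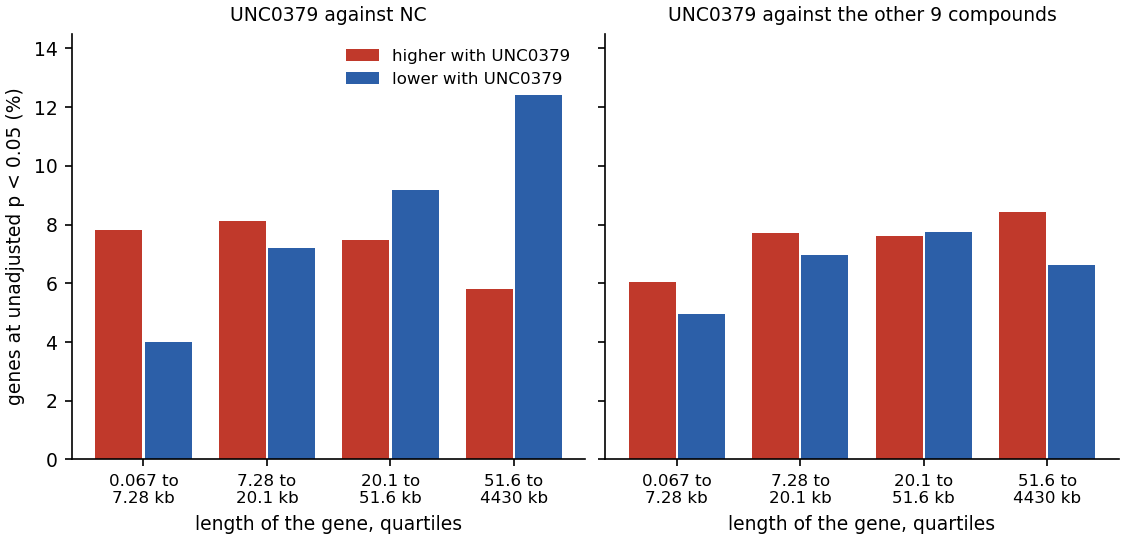
Percentage of genes at an unadjusted p under 0.05, higher (red) or lower (blue) with UNC0379, in 4 quartiles of gene length in kb, against NC (left) and against the mean of the other 9 compounds (right). The lower share climbs from 4.01% to 12.4% against NC and is 4.96% and 6.63% at these ends against the compounds.

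By chromosome, median changes lay between -0.06 (chromosome 6) and 0.03 (chromosome 15). On the X chromosome 51 of 673 genes were higher (7.58%) and 49 lower (7.28%) at an unadjusted p under 0.05, with a median of 0.0071 and 0 called, close to the shares over all genes.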

How the data were processed

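RNA of 22 libraries was measured, in 11 groups taken from the sample titles. The authors deposited scores, here normalised read counts rounded to whole numbers, after alignment to mm10. The submitters' processing notes name bcl2fastq, Bowtie2 2.2.5 and RSEM. The study's methods describe EDASeq normalisation at its full setting, which gives all libraries 1 distribution, so depth is unknown and no count test was run. A further table with the authors' group means was not used, and 0 columns were unmatched. Whether counting used strand is not given in the sources used here.

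A gene was tested if at least 2 libraries reached a value of 10. Values were analysed as log2(value + 1) with limma 3.58.1 in R 4.3.3 (lmFit with 11 group means and the replicate number as a block, 10 residual degrees of freedom, eBayes with trend, two-sided, Benjamini-Hochberg). As a check of the block, deviations of same-numbered libraries from their group means correlated with r = 0.165 between UNC0379 and NC, and over 0.1 in 51 of 55 pairs of groups (0.0535 to 0.298). Simulated data had 200 of 17275 genes changed in UNC0379, each by more than the 2-fold limit. Noise was independent between libraries and of the size that the fit had estimated, and no other group differed. There the fit recovered 78% and made 0 false calls. This checks the code, and cannot give the power or the error rate in the real libraries. Fold changes on this scale understate the change of low genes. Positions, exon overlaps and shared 31-base stretches came from GENCODE M21 (mm10), which held 97.1% of the symbols, and promoters from RefSeq (GRCm38.p6). Python 3.11.15 and matplotlib 3.10.9 were used for these and for the plots.

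Text names the called genes, the 10 largest rises and falls that were not called (unadjusted p under 0.05, above 0 in all 4 libraries, larger group mean at least 100, no overlap), 16 genes of SETD8 biology and pluripotency whatever their result, and the 2 members of each list with the smallest p, unless said otherwise. Members, lists and tests were chosen with earlier results of these data known. Alternatives were a pseudocount of 10, other filters, no block, size factors, the 4 libraries alone, no trend, another reference and leaving out each library. Some genes are not reported here.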

Additional observations from a re-analysis of the deposited data

How the results depend on the processing

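The counts of genes called moved with the fit. UNC0379 against NC gave 11 (6 higher, 5 lower), and 0 in each count without the replicate block or with the 4 libraries alone. The count was 19 (11 lower) with only genes above 0 in all libraries, 4 (2 and 2) without the trend and 58 (31 higher, 27 lower) with the mean of NC and the 9 other compounds as reference. Leaving out 1 library each gave 6 to 262 genes, 3 to 92 higher and 2 to 170 lower. A lone library left in a group is assumed to vary as the others do. The cause was not tested. Pseudocount 10, no filter and size factors stayed within 1.5 times. Against Chaetocin the count was 4 without the block and 7 to 40 with a library left out. Against MS023 these were 237 and 265 to 514, and against the other 9 compounds 7 and 10 to 16.

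Lower cholesterol genes numbered 6 without the block, 9 with the other reference and 5 to 12 with a library left out. Lower endoderm markers numbered 3 with the 4 libraries alone. These list settings were chosen after seeing the data.

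Of 1148 values over 96 named genes, 12 reversed, all of genes not called. With the mean of NC and the other compounds as reference these were Kmt5c (0.0038), Mdm2 (-0.18), Ccng1 (-0.065), Ncapd2 (0.0014) and Gm4340 (0.19). With a library left out the ranges crossed 0 for Dtl (-0.051 to 0.057), Rsbn1 (-0.19 to 0.033), Cdt1 (-0.032 to 0.10), Cdkn1a (-0.074 to 0.0104), Gm4340 (-2.03 to 0.39) and Pou5f1 (-0.046 to 0.004).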
